A study of Mus musculus with 8 samples.

Results

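The genes described here are 10 of the genes that take up glucose and break it down to lactate: Slc2a1, Hk1, Hk2, Pfkl, Pfkp, Aldoa, Tpi1, Pgk1, Pkm and Ldha, out of 31053 genes listed. They were chosen by symbol, and their unique molecular identifiers (UMIs, each marking 1 captured mRNA molecule) were added up over a class of cells in each library. The cells came from the parietal bones of mouse pups at 4 to 5 days after birth, released by collagenase digestion and profiled by 10x Genomics single-cell RNA sequencing. There were 4 wild type (WT) libraries and 4 heterozygous (Het) libraries, and the labels give all of them the strain B6.129(FVB)-Col1a2tm1Mcbr/J. Het pups carried 1 copy of the allele G610C, a glycine to cysteine change in the helical part of pro-α2(I), a chain of type I procollagen, which is used as a model of osteogenesis imperfecta. Every cell of a Het pup carries the allele, while the protein is made in quantity by osteoblasts (OBs). Each library combined as many as 5 pups of 1 genotype, so libraries served as replicates and differences between pups cannot be seen. Kit version 3 was used for WT S1 and S2 and for Het S3 and S4. Kit version 3.1, together with newer counting software, served for WT S5 and S6 and for Het S7 and S8.

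Glucose enters a cell through membrane transporters, of which Slc2a1 encodes the widely used GLUT1. Hexokinases (Hk1, Hk2) phosphorylate it, which keeps it inside the cell, and phosphofructokinase (liver subunit Pfkl, platelet subunit Pfkp) commits it to glycolysis. Aldolase A (Aldoa) splits the sugar, triosephosphate isomerase (Tpi1) interconverts the products, phosphoglycerate kinase 1 (Pgk1) and pyruvate kinase (Pkm) make ATP, and lactate dehydrogenase A (Ldha) turns pyruvate into lactate. Osteoblasts are known for a high rate of glycolysis in the presence of oxygen, and GLUT1 is known as a glucose transporter that they use. Chondrocytes, which live in cartilage without blood vessels, also rely on glycolysis, and several of these genes are known targets of the hypoxia-inducible factor HIF-1.

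The sequence before the start of the genes is shown for Slc2a1, Hk2 and Pgk1, the member with the largest fall during OB maturation, the member that differed most between kit versions, and a member called higher in mature than in early OBs relative to the median gene, though not as a share of all UMIs. They are taken from RefSeq (GRCm38.p6), 5′ to 3′ on the gene's strand, and capitals mark the core letters of the hypoxia response element, ACGTG or GCGTG on either strand (CACGT or CACGC when read on the other). The window is the 250 bases before the RefSeq start. For Slc2a1 it stops after 216 bases, where the GENCODE model of the gene begins.
Slc2a1 (chr4:119108495-119108710, + strand): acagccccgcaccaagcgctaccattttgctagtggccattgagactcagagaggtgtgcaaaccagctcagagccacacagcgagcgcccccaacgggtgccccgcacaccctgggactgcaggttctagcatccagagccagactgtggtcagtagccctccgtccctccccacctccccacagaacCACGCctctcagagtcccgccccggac
Hk2 (chr6:82774455-82774704, - strand): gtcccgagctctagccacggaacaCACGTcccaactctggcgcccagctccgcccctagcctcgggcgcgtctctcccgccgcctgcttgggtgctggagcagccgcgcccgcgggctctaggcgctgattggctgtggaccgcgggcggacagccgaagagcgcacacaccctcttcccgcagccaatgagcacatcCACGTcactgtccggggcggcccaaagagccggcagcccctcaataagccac
Pgk1 (chrX:106186850-106187099, + strand): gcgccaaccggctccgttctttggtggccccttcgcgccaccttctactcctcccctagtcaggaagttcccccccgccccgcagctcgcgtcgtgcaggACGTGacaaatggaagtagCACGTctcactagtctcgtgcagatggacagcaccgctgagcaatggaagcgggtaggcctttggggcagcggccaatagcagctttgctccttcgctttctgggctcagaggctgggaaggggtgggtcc
Windows were found for 10 of the 10 genes, 15 windows in all because some genes have several starts. At least 1 match lay in 11 of the 15 windows and in windows of 9 of the 10 genes, Tpi1 being the exception. Of all 32851 windows of this length, 38.6% held at least 1 match (16.6% held ACGTG and 28.2% GCGTG, and a window can hold both). The letters CACGTG count on both strands, and a match describes the letters only. In the file's genes Slc2a1 (ENSMUSG00000028645) lies on chromosome 4, bases 119108711 to 119137983 of GRCm38 (GENCODE release M21), Hk2 (ENSMUSG00000000628) on chromosome 6, bases 82725025 to 82774454, and Pgk1 (ENSMUSG00000062070) on chromosome X, bases 106187100 to 106203699. A second identifier with the symbol Aldoa (ENSMUSG00000114515) had 46 UMIs in the kept cells against 81174 of the member (ENSMUSG00000030695) and was left out.

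In all 46420 cells were kept, those with 500 or more genes detected and less than 10% of UMIs from mitochondrial genes. Cells with 10 or more Col1a1 UMIs that also had 2 or more UMIs in at least 2 of Runx2, Sp7 and Ibsp were taken as OBs. Col1a1, as a percentage of the cell's UMIs, set the stage: early OBs (eOBs) under 0.75%, differentiating OBs (dOBs) from 0.75% to 3.5%, and mature OBs (mOBs) over 3.5%. This gave 2671 OBs: 379 eOBs (22 to 95 per library), 1217 dOBs (33 to 427) and 1075 mOBs (42 to 299). They were compared with 15370 cells that had over 1% of their UMIs in Col2a1, the main cartilage collagen (Col2a1 cells, 101 to 6169 per library), and with the 28379 other cells. Libraries held 30480239 to 85162035 UMIs, and the sums ran from 204130 UMIs (eOBs of S4) to 39095716 (Col2a1 cells of S7). At most 24 cell barcodes were shared by a pair of libraries, 0.558% of the smaller one.

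The classes carried the markers of their names together with those of other cell types. All 8 listed osteoblast markers were detected in eOBs, dOBs and mOBs of every library, and all 8 chondrocyte markers in the Col2a1 cells of every library. The other cells were not free of osteoblast transcripts. There the osteoblast list took 0.178% to 1.51% of UMIs (median 0.726%). Col1a1 took 0.162% to 1.42% of their UMIs, against 0.311% to 0.530% in eOBs. The share of UMIs from the chondrocyte list in eOBs ran from 0.0031% to 3.05% (median 0.777%), above that of the osteoblast list at the median (0.651%, 0.594% to 0.842%). In mOBs the chondrocyte list took 0.0031% to 0.281% and the osteoblast list 6.64% to 14.2%. At the median over libraries 4 more lists were lower in mOBs than in eOBs, erythroid genes at 0.0387% against 0.413%, haematopoietic markers at 0.00249% against 0.0162%, endothelial markers at 0.00128% against 0.0105% and smooth muscle or pericyte markers at 0.0268% against 0.0617%. Fibroblast markers were higher, at 0.192% against 0.0927%, and muscle markers were at or under 0.0013% in both. Col2a1 itself made up 0.00062% to 0.173% of eOB UMIs with kit version 3 and 0.611% to 1.54% with version 3.1. In S1 and S2 cells with haematopoietic markers were common, with at least 3 such markers in 59.8% and 49.0% of the other cells against 8.34% to 14.4% in the remaining libraries. Erythroid genes took 0.372% and 1.26% of OB UMIs in S1 and S2, 0.363% and 0.189% in S3 and S4, and 0.0110% to 0.200% with version 3.1.

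Together the 10 genes made up 0.116% ± 0.027 of UMIs in eOBs (SD, n = 8 libraries), 0.129% ± 0.028 in dOBs, 0.105% ± 0.028 in mOBs, 0.125% ± 0.011 in Col2a1 cells and 0.123% ± 0.009 in the other cells. These sums overlap between all classes. Single genes are given as UMIs per 1000000 UMIs of the class (CPM). The 3′ kits count molecules whatever their length, and capture can still differ between genes, so levels are compared between samples of 1 gene.

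**Figure D1:**
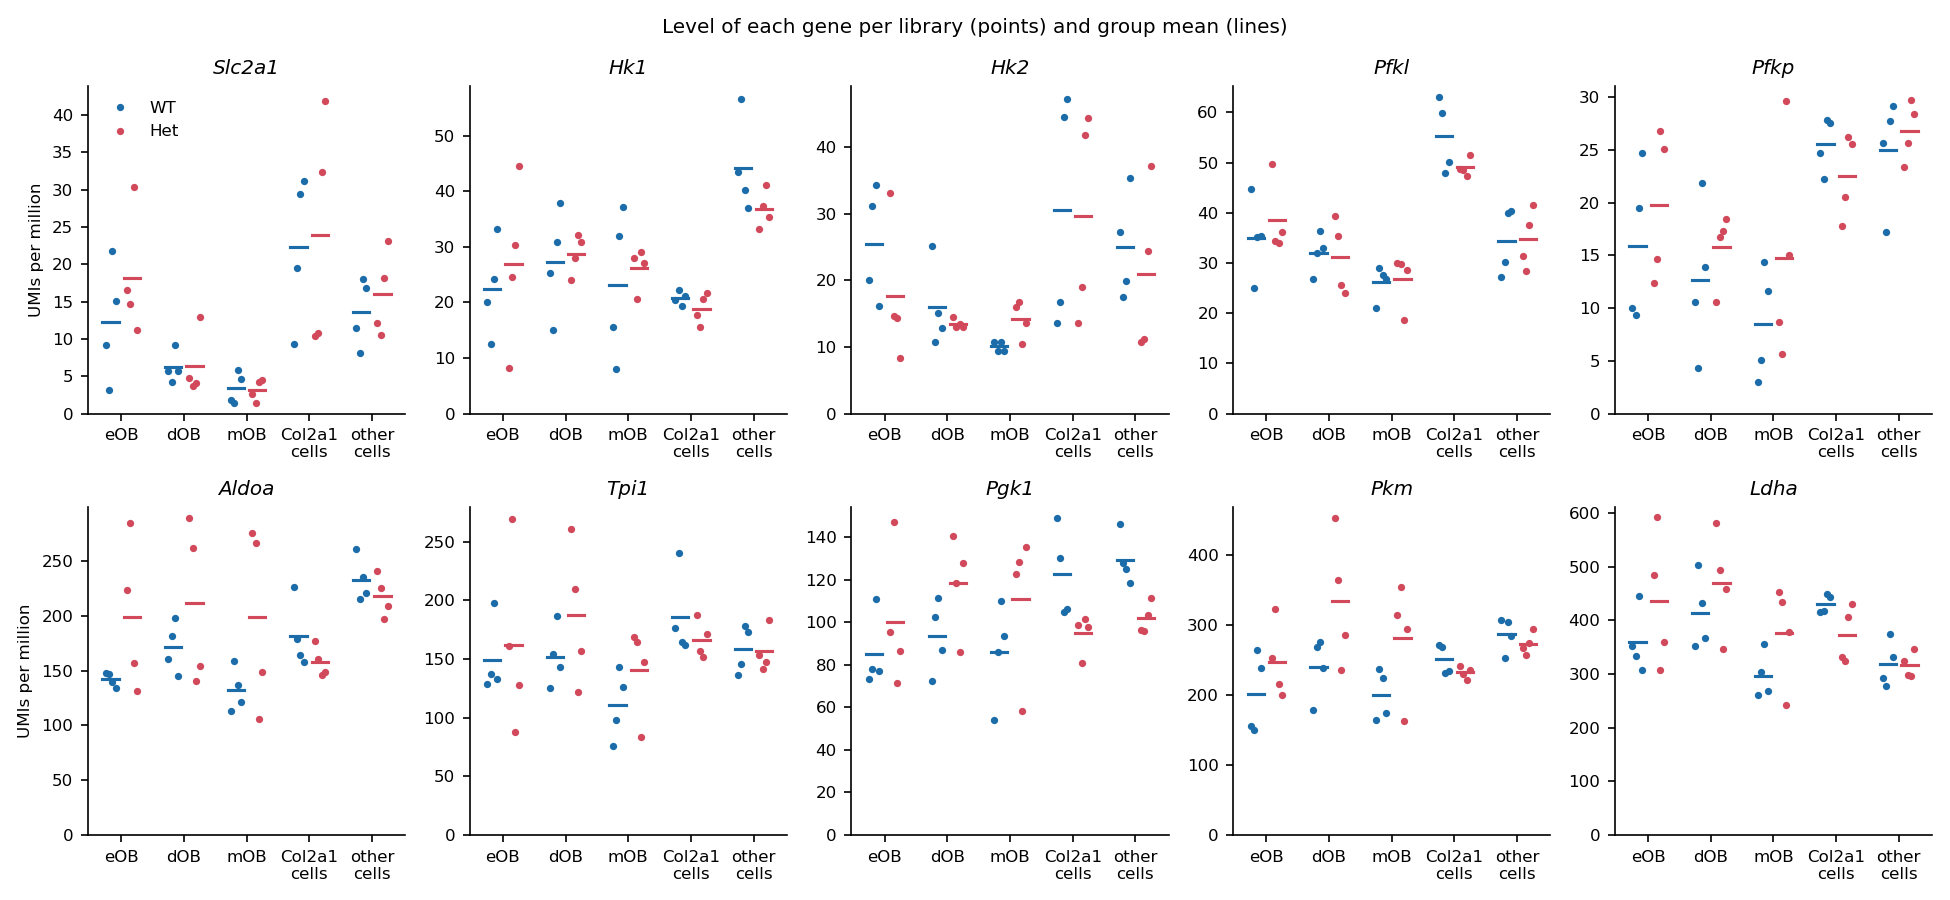
CPM (y axis, from 0) of each gene in eOBs, dOBs, mOBs, Col2a1 cells and other cells, with a point per library (4 WT in blue, 4 Het in red) and a line at the group mean. Slc2a1 lies at 1.40 to 5.85 in mOBs and at 9.37 to 41.9 in Col2a1 cells, while Pgk1 and Pkm overlap across classes.

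Slc2a1 was the member that changed most with OB maturation. In eOBs it stood at 9.25, 3.11, 21.8 and 15.0 CPM in WT S1, S2, S5 and S6, and at 16.6, 14.7, 30.4 and 11.1 in Het S3, S4, S7 and S8. In mOBs it stood at 1.80, 1.45, 5.85 and 4.58 in the WT libraries and 2.66, 1.40, 4.16 and 4.51 in the Het libraries. Each library had less of it in its mOBs than in its eOBs, though these levels rest on few molecules, 1 to 34 UMIs per library in eOBs and 2 to 26 in mOBs. The fall was 3.39-fold, a log2 change of -1.76 (SE 0.28, 95% interval -2.34 to -1.18, edgeR quasi-likelihood test, adjusted p = 3.95e-05). It stayed called when any 1 library was left out (-1.89 to -1.51). Chondrocyte, erythroid, haematopoietic, endothelial and smooth muscle markers were also lower in mOBs than in eOBs at the median, as given above, and the part of the last 4 in the fall of Slc2a1 was not tested. Among OBs with at most 0.15% Col2a1, which leaves out the OBs richest in cartilage transcripts, the change was -1.199 (SE 0.33, adjusted p = 0.00764). With kit version 3.1 alone it was -1.70 (SE 0.38, adjusted p = 0.00450), and with version 3 alone the counts were too low for the test, with lower mOB values in all 4 libraries. It was also too low to be tested with other Col1a1 limits, with cells thinned to 2000 UMIs, with under 5% mitochondrial UMIs, or without OBs that had markers of other classes.

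By value, most of that fall lay between eOBs and dOBs. In dOBs Slc2a1 stood at 5.69, 4.28, 9.20 and 5.64 CPM in WT S1, S2, S5 and S6, and at 4.81, 3.73, 4.11 and 12.99 in Het S3, S4, S7 and S8. The log2 change from eOBs to dOBs was -1.34 (SE 0.26, adjusted p = 0.0013), lower in 6 of 8 libraries, while from dOBs to mOBs it was -0.42 (SE 0.27, interval -0.98 to 0.14, adjusted p = 0.269). Among OBs with low Col2a1 the first step was -0.86 (SE 0.32) and no longer called (adjusted p = 0.0761). Over 5 finer bins of Col1a1 the mean level of Slc2a1 was 15.3, 7.15, 5.89, 3.97 and 1.88 CPM from the lowest to the highest bin (n = 8 libraries). These bins held 379, 372, 845, 602 and 473 cells. Because the bins use Col1a1, which takes up to 12.3% of mOB UMIs, the summed share of the other genes falls along them.

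**Figure D2:**
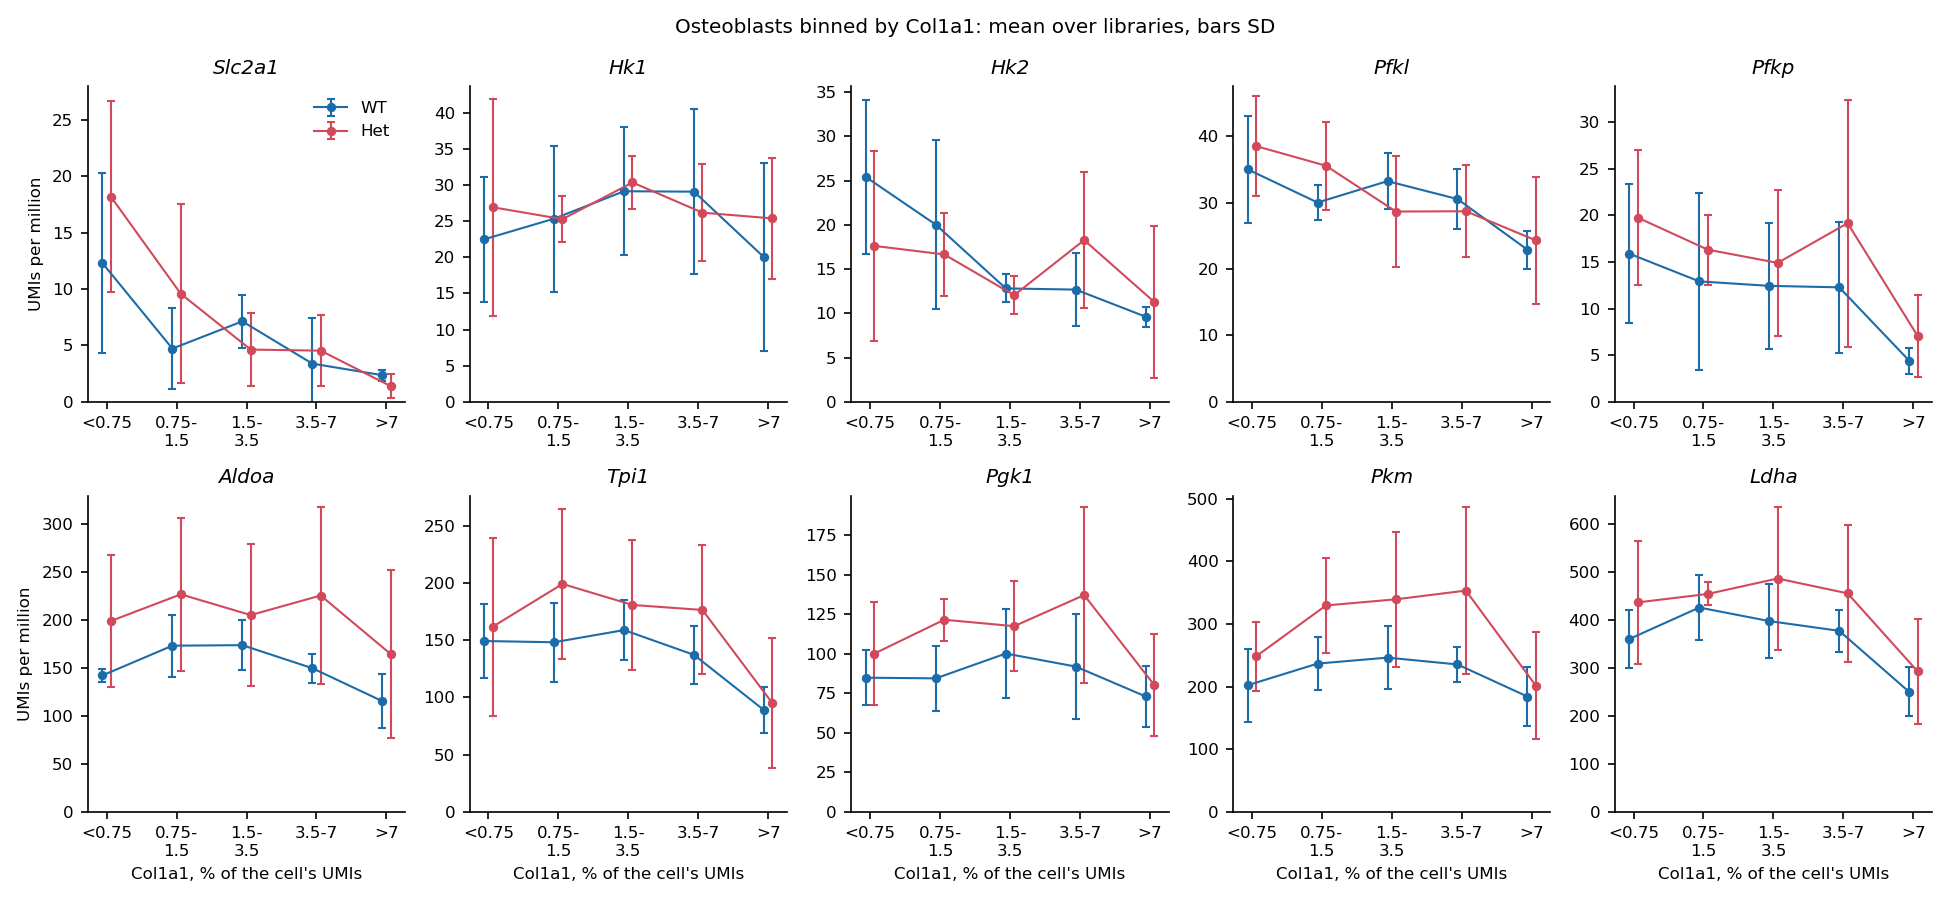
Mean CPM of each gene (y axis, from 0) in OBs binned by the percentage of UMIs in Col1a1 (x axis, 5 bins), with bars for the SD over the 4 libraries of each genotype (WT blue, Het red). Slc2a1 declines over the bins from a mean of 15.3 to 1.88 over all libraries, while Pgk1 and Pkm have their lowest mean in the last bin (76.6 and 193).

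The hexokinases did not move together. Hk1 stood at 20.05, 12.5, 24.2 and 33.3 CPM in eOBs of WT libraries S1, S2, S5 and S6 and at 8.28, 24.5, 30.4 and 44.6 in eOBs of Het S3, S4, S7 and S8. In mOBs it stood at 15.6, 7.96, 31.9 and 37.2 in WT and 28.0, 20.7, 29.1 and 27.1 in Het. Its level overlapped between stages, and it was called higher in mOBs only relative to the median gene, at 0.42 on the log2 scale (SE 0.15, adjusted p = 0.0322). This call held in 5 of the 8 fits without 1 library. Hk2, known as the hexokinase that responds to hypoxia, was not called, at -0.44 (SE 0.23, adjusted p = 0.147). Without TMM it was called lower at -0.87 (adjusted p = 0.00279), and with TMM it was -0.81 in the WT and 0.18 in the Het libraries alone, called in neither.

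The phosphofructokinase subunits were not called between stages with TMM scaling and the stage limits above. Pfkl differed between mOBs and eOBs by -0.11 (SE 0.13, interval -0.38 to 0.16, adjusted p = 0.570), and Pfkp by -0.28 (SE 0.22, interval -0.74 to 0.19, adjusted p = 0.369). With stage limits of 0.5% and 5% Pfkp was called lower in mOBs, at -1.07 against eOBs (adjusted p = 0.00436) and -0.70 against dOBs (adjusted p = 0.0187). Without TMM both were called lower in mOBs than in eOBs, Pfkl at -0.55 and Pfkp at -0.69. Pfkfb4, which makes a regulator that activates phosphofructokinase, was higher in mOBs at 0.85 (SE 0.25, adjusted p = 0.0103), and 0.43 and not called without TMM (adjusted p = 0.138).

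Among the later enzymes Aldoa, Pgk1 and Pkm were called higher in mOBs than in eOBs relative to the median gene, and Tpi1 and Ldha were not. Pgk1 stood at 73.3, 77.9, 111 and 77.3 CPM in eOBs of WT libraries S1, S2, S5 and S6 and at 95.2, 147, 71.5 and 86.4 in Het S3, S4, S7 and S8. In mOBs it stood at 54.0, 86.1, 110 and 93.4 in WT and 123, 128, 58.2 and 135 in Het, so the raw levels of the stages overlap. The scaled log2 difference was 0.48 (SE 0.12, interval 0.24 to 0.72, adjusted p = 0.00267). Pkm differed by 0.49 (SE 0.13, adjusted p = 0.00598) and Aldoa by 0.35 (SE 0.10, adjusted p = 0.0108). These 3 were called in all 8 fits without 1 library, and none of them with stage limits of 0.5% and 5% (Pgk1 at 0.31, adjusted p = 0.120). Ldha differed by 0.20 (SE 0.09, adjusted p = 0.0992) and Tpi1 by 0.13 (SE 0.11, adjusted p = 0.394). Among OBs with low Col2a1 edgeR called Ldha higher (0.29, adjusted p = 0.0192), and also without the count filter (0.30, adjusted p = 0.0372).

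In all, 5 of 10 members were called between mOBs and eOBs, where 35.5% of all 9991 genes tested were. Of these, 4 were higher and 1 lower, against 17.9% and 17.6% of all genes. Between dOBs and eOBs 1 of 10 was called, Slc2a1 (14% of all genes, 7.17% lower), the others running from -0.44 (Hk2) to 0.39 (Pkm, adjusted p = 0.0536). Between mOBs and dOBs 0 of 10 were called (28.3% of all genes), with values from -0.42 (Slc2a1) to 0.22 (Pgk1), where edgeR gave 1 member and 38.7% of all genes an unadjusted p under 0.05 and DESeq2 called 0. The higher calls depended on the scaling. TMM scaling sets the bulk of genes near 0, and without it, on shares of all UMIs, the median of all genes in mOBs lay at -0.46 relative to eOBs, Pgk1 and Pkm at 0.03 each, Hk1 at -0.0039 and Aldoa at -0.11. On that scale 0 members were called higher and 6 were called lower, Slc2a1 at -2.17 among them, where 65.4% of all genes were called. Between mOBs and dOBs 6 were also called lower without TMM, where 59.6% of all genes were: Slc2a1 (-0.74), Tpi1 (-0.44), Ldha (-0.41), Pfkl (-0.28), Pkm (-0.26) and Aldoa (-0.26). Within kit version 3, Aldoa (0.46) and Pkm (0.77) were called higher, and within version 3.1, Pgk1 (0.48) was, with Slc2a1 lower. That is 2 members each, where 25.5% and 26.9% of all genes were called.

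**Figure D3:**
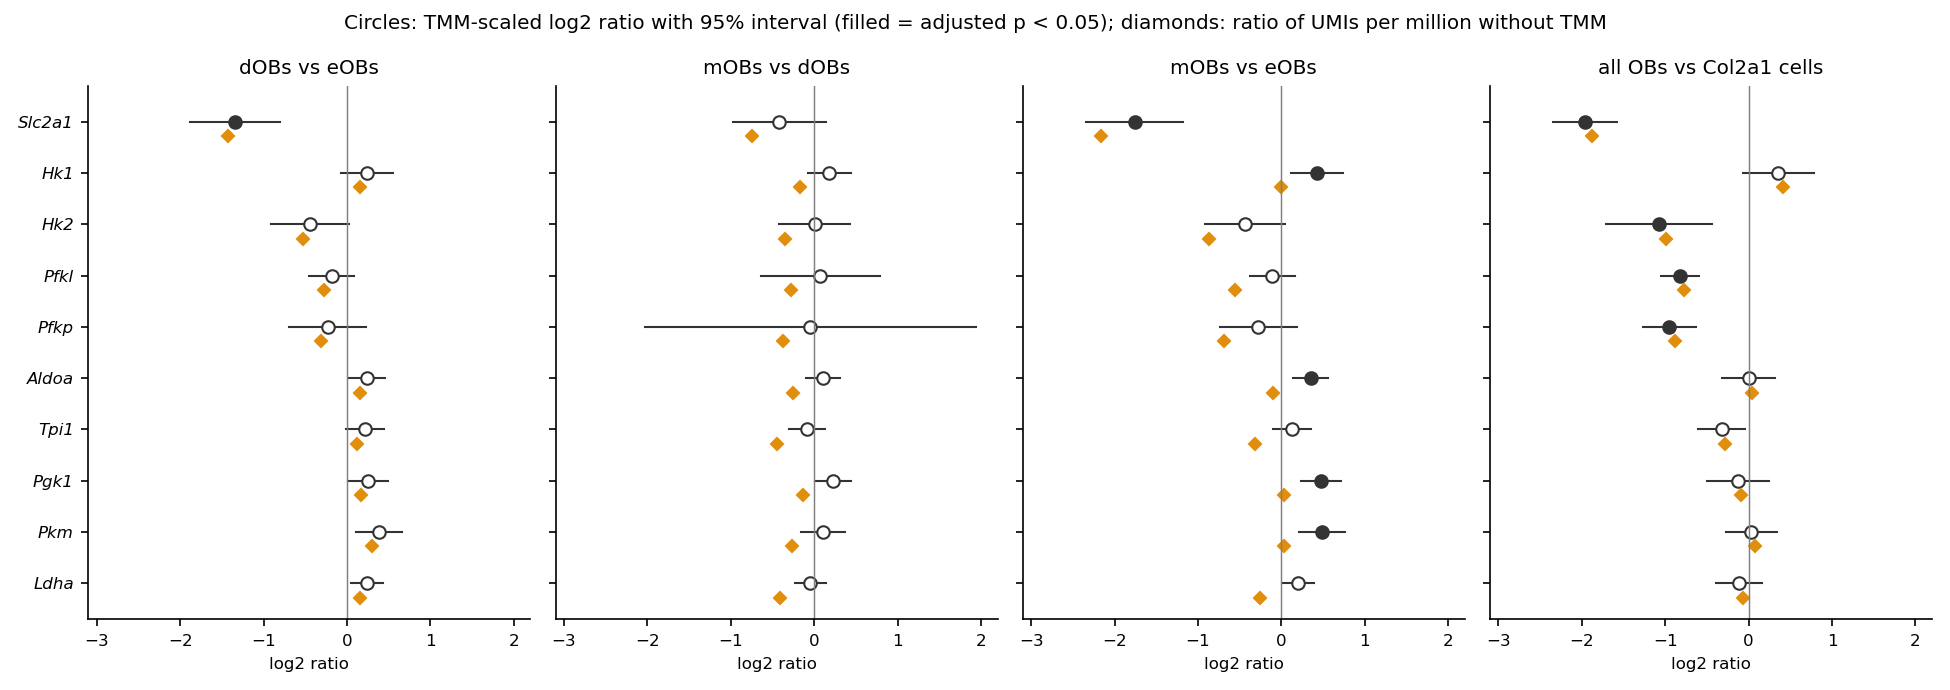
Log2 ratios (x axis) of each gene for dOBs vs eOBs, mOBs vs dOBs, mOBs vs eOBs and all OBs vs Col2a1 cells, with TMM scaling (circles with 95% intervals, filled when the adjusted p was under 0.05) and without it (diamonds). Slc2a1 is below 0 on both scales in the eOB and Col2a1 cell comparisons, while Aldoa, Pgk1, Pkm and Hk1 are above 0 in mOBs vs eOBs with TMM and near 0 without it.

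OBs had less of the transporter and of the phosphofructokinases than Col2a1 cells. Slc2a1 stood at 5.25, 2.30, 9.31 and 5.96 CPM in all OBs of WT libraries S1, S2, S5 and S6 and at 4.67, 2.66, 8.69 and 10.5 in Het S3, S4, S7 and S8. In Col2a1 cells of the same libraries it stood at 9.37, 19.5, 29.4 and 31.2 in WT and at 10.4, 10.8, 32.4 and 41.9 in Het. OBs were lower in 8 of 8 libraries, 3.90-fold by the fit, or -1.96 on the log2 scale (SE 0.18, adjusted p = 8.73e-08). This held within kit version 3 (-1.62, SE 0.31) and within version 3.1 (-2.14, SE 0.11). OBs were also 2.24-fold below the other cells (-1.16, SE 0.18, adjusted p = 3.38e-05), which stood at 8.08 to 23.1. The other cells carried osteoblast markers too, as given above, so they are not a class without osteoblast transcripts.

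Pfkl and Pfkp, subunits of the enzyme that commits sugar to glycolysis, followed the same order. Pfkl stood at 30.0, 29.0, 33.0 and 30.6 CPM in all OBs of the WT libraries and 35.2, 31.4, 25.0 and 27.0 in those of the Het libraries. Its Col2a1 cell values were 63.0, 59.9, 48.0 and 50.1 in WT and 48.8, 48.5, 47.2 and 51.6 in Het, with no overlap between the classes. The log2 difference was -0.82 (SE 0.11, adjusted p = 6.34e-06), called within both kit versions. Pfkp stood at 5.53 to 22.7 in OBs and 17.8 to 27.9 in Col2a1 cells, and was lower in OBs in 8 of 8 libraries at -0.95 (SE 0.15, adjusted p = 4.03e-05). Pfkp was also below the other cells, at -0.86 (SE 0.15), while Pfkl was not called against them (-0.02, SE 0.11).

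Hk2 differed between OBs and Col2a1 cells with kit version 3.1 and not with version 3. In Col2a1 cells it stood at 13.6 and 16.7 CPM in WT S1 and S2, at 13.6 and 19.0 in Het S3 and S4, at 44.6 and 47.2 in WT S5 and S6 and at 41.8 and 44.3 in Het S7 and S8. In all OBs it stood at 17.9 and 12.9, 16.9 and 15.7, 15.5 and 11.7, and 12.7 and 12.5 in the same order. The difference was called over all libraries at -1.07 (SE 0.30, adjusted p = 0.00641). It was 0.05 (SE 0.33) within version 3 and -1.89 (SE 0.18) within version 3.1, and the difference between kit versions was itself called at -1.998 (interval -2.43 to -1.57). Of the 13170 genes tested for that term 12.3% were called. Col2a1 cells of version 3 numbered only 101 to 1129 per library, and the kit, the software and the preparation cannot be told apart.

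Of 10 members 4 were called between OBs and Col2a1 cells, all lower in OBs, where 52.4% of all 14767 genes were called and 26.9% were lower. Aldoa (0.00, SE 0.15), Pkm (0.04, SE 0.15), Pgk1 (-0.13, SE 0.18) and Ldha (-0.11, SE 0.13) were not, nor were Tpi1 (-0.32, SE 0.13, adjusted p = 0.0505) and Hk1 (0.36, SE 0.20). In the WT libraries alone Tpi1 was called lower (-0.53, adjusted p = 0.0178) and in the Het libraries alone Hk1 higher (0.47, adjusted p = 0.00662), while Hk2 was called in neither. Within kit version 3.1, 8 members were called (62.3% of all genes), among them Aldoa at -0.26 and Ldha at -0.44. Against the other cells 3 of 10 were called, where 45.6% of all genes were (19.6% higher and 26% lower). Ldha, the enzyme that makes lactate, was the member higher in OBs than in the other cells, at 0.45 (SE 0.13, adjusted p = 0.00837) and 1.36-fold. Its values were 316, 351, 405 and 321 CPM in OBs of WT S1, S2, S5 and S6. They were 503, 457, 309 and 423 in OBs of Het S3, S4, S7 and S8, against 277 to 374 in the other cells. In the WT libraries alone it was 0.20 and not called (adjusted p = 0.236). Not called against the other cells by edgeR were Hk1 (-0.48, adjusted p = 0.0580), Hk2 (-0.39), Aldoa (-0.20), Pgk1 (-0.03), Pkm (0.03) and Tpi1 (0.04), and without TMM Hk1 (-0.64) and Aldoa (-0.37) were called lower. DESeq2 called Hk1 lower (-0.49, adjusted p = 0.0355), and in the WT libraries alone edgeR called Aldoa lower (-0.56, adjusted p = 0.0135). Col2a1 cells against other cells gave 6 of 10 called (62% of all genes, 28.6% higher and 33.4% lower), with Slc2a1, Hk2, Tpi1, Ldha and Pfkl higher and Hk1 lower. The call of Hk2 (0.68, adjusted p = 0.0418) held in 3 of the 8 fits without 1 library and was lost with DESeq2 (adjusted p = 0.0727), without TMM and within either genotype, and that of Tpi1 was lost without TMM (0.16, adjusted p = 0.287) and within either genotype. Aldoa was called lower without TMM (-0.42).

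Across the 40 sums of eOBs, dOBs, mOBs, Col2a1 cells and other cells in 8 libraries, the members did not share 1 pattern. Slc2a1 correlated most with Pfkp (Pearson r = 0.76), Pfkl (0.63) and Hk2 (0.62) and hardly with Aldoa (0.01) or Pkm (0.06), on log2 CPM. Tpi1 was nearest to the mean of the other 9 members (r = 0.79) and Hk1 farthest from it (0.11). The genes outside the lists whose levels were most like the mean of the members were Ezr (0.77), Lmo4 (0.75), Cxcl14 (0.73), Sox11 (0.73) and Nt5e (0.73), among 6807 genes with a mean of at least 20 CPM. The sums share libraries and depth, so these values are descriptions.

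The comparison of Het with WT asks whether misfolding of the mutant procollagen goes with a change in these genes. Over both kit versions 0 members were called in any class by edgeR, with 9 or 10 tested per class. Among all genes 0.53% were called in mOBs, 0.0101% in dOBs, 0% in eOBs, 0.0085% in all OBs, 0.0913% in Col2a1 cells and 0% in the other cells. At an unadjusted p under 0.05 there was 1 member in mOBs (11.2% of all genes), 0 in dOBs (7.51%), eOBs (3.82%) and all OBs (8.87%), 3 in Col2a1 cells (7.03%) and 2 in the other cells (23.4%). DESeq2 called 1 member, Pgk1, in the other cells, where it called 9.72% of all genes, and 0 elsewhere. In all OBs it gave no adjusted p for Slc2a1, Hk1, Hk2, Pfkl and Pfkp, so these could not be called there. The same held for Slc2a1 in cells with haematopoietic markers. The intervals are wide: for Pgk1 in mOBs the log2 difference was 0.28 (SE 0.27, interval -0.31 to 0.86).

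Pfkp had the smallest p in mOBs. It stood at 3.0, 5.06, 14.4 and 11.7 CPM in WT S1, S2, S5 and S6 and at 8.66, 5.60, 29.6 and 15.0 in Het S3, S4, S7 and S8. Both Het libraries lay above both WT libraries within each kit version, while the groups overlapped over all 8. The log2 difference was 0.81 (SE 0.26, interval 0.26 to 1.37), with an unadjusted p of 0.00781 and an adjusted p of 0.223. Without Het S7 it was 0.45, and the WT levels rest on as few as 5 UMIs (S1). In mOBs 8 of 9 members tested were higher in Het, with a median of 0.28 against 0.01 for all genes. With stage limits of 0.5% and 5% it was 5 of 8, with a median of 0.02 against 0.02. The mOBs of WT S1 and S2 had 12.3% and 10.6% of UMIs in Col1a1, and those of Het S3 and S4 6.69% and 8.22%. With version 3.1 the shares were 7.84% and 8.27% in WT S5 and S6 and 5.80% and 8.41% in Het S7 and S8. Every member had a lower mean over 7% Col1a1 than at 3.5 to 7%, among them Tpi1 (91.8 against 157 CPM). The part of Col1a1 content in the genotype values was not tested. Slc2a1 was too low for the fit within stages, with a mean of 3.42 ± 2.14 in WT and 3.18 ± 1.43 in Het mOBs (SD, n = 4 each).

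Aldoa, Tpi1, Pgk1 and Pkm were called between genotypes in OBs within kit version 3 and not within version 3.1. Aldoa stood at 138 and 162 CPM in OBs of WT S1 and S2 and at 276 and 266 in those of Het S3 and S4, against 169 and 134 in WT S5 and S6 and 133 and 150 in Het S7 and S8. Tpi1 stood at 107 and 116 in WT and 202 and 181 in Het with version 3, and at 172 and 135 in WT and 104 and 150 in Het with version 3.1. The Het and WT libraries were apart for both genes with version 3 and overlapped or crossed with version 3.1. Within version 3, Aldoa was higher in Het by 0.89 (SE 0.17, adjusted p = 0.00718), Pkm by 0.87 (SE 0.20, adjusted p = 0.0189), Tpi1 by 0.82 (SE 0.17, adjusted p = 0.00888) and Pgk1 by 0.76 (SE 0.20, adjusted p = 0.0320). That is 4 of 10 members, where 7.33% of 10891 genes were called, and Ldha was not among them (0.55, SE 0.17, adjusted p = 0.0802). Within version 3 there were also 3 called in mOBs (5.26% of all genes), Aldoa, Tpi1 and Pgk1, 1 in eOBs (5.81%), Pkm, all higher in Het, and 1 in haematopoietic-marker cells (7.91%), Pkm, lower at -0.92. Within version 3.1 the same differences were -0.20 (SE 0.14), -0.04 (SE 0.16), -0.38 (SE 0.20) and -0.13 (SE 0.24), with 0 members and 0 of 13249 genes called. With version 3 the mOBs of WT S1 and S2 had more Col1a1 than those of Het S3 and S4, as given above.

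The difference of the genotype effect between kit versions was tested as a term of its own. In all OBs it was called for Tpi1 at -1.22 (SE 0.27, adjusted p = 0.0442) and Aldoa at -1.11 (SE 0.23, adjusted p = 0.0360), which is 2 of 10 members where 2.55% of all genes were called. Pkm at -0.93 (adjusted p = 0.141) and Pgk1 at -0.92 (adjusted p = 0.215) were not called. In the other cells 2 of 10 members, Pgk1 (0.63) and Hk2 (1.46), were called where 22.2% of all genes were. Haematopoietic markers made up 0.0744% and 0.0405% of OB UMIs in WT S1 and S2 and 0.00446% and 0.0140% in Het S3 and S4, and erythroid genes were also highest in S1 and S2, as given above. When OBs in which 3 or more non-erythroid markers of another class were detected were left out, Het S7 and S8 kept too few OBs (6 each) to be fitted, and the remaining Het libraries S3 and S4 gave 0.79 for Aldoa (adjusted p = 0.0399) and 0.72 for Tpi1 (adjusted p = 0.0361), 2 of 10 where 3.12% of all genes were called. In mOBs Tpi1 was called there (2.11% of all genes). The part of the cell makeup of S1 and S2, or of the kit and software, in these differences was not tested further.

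**Figure D4:**
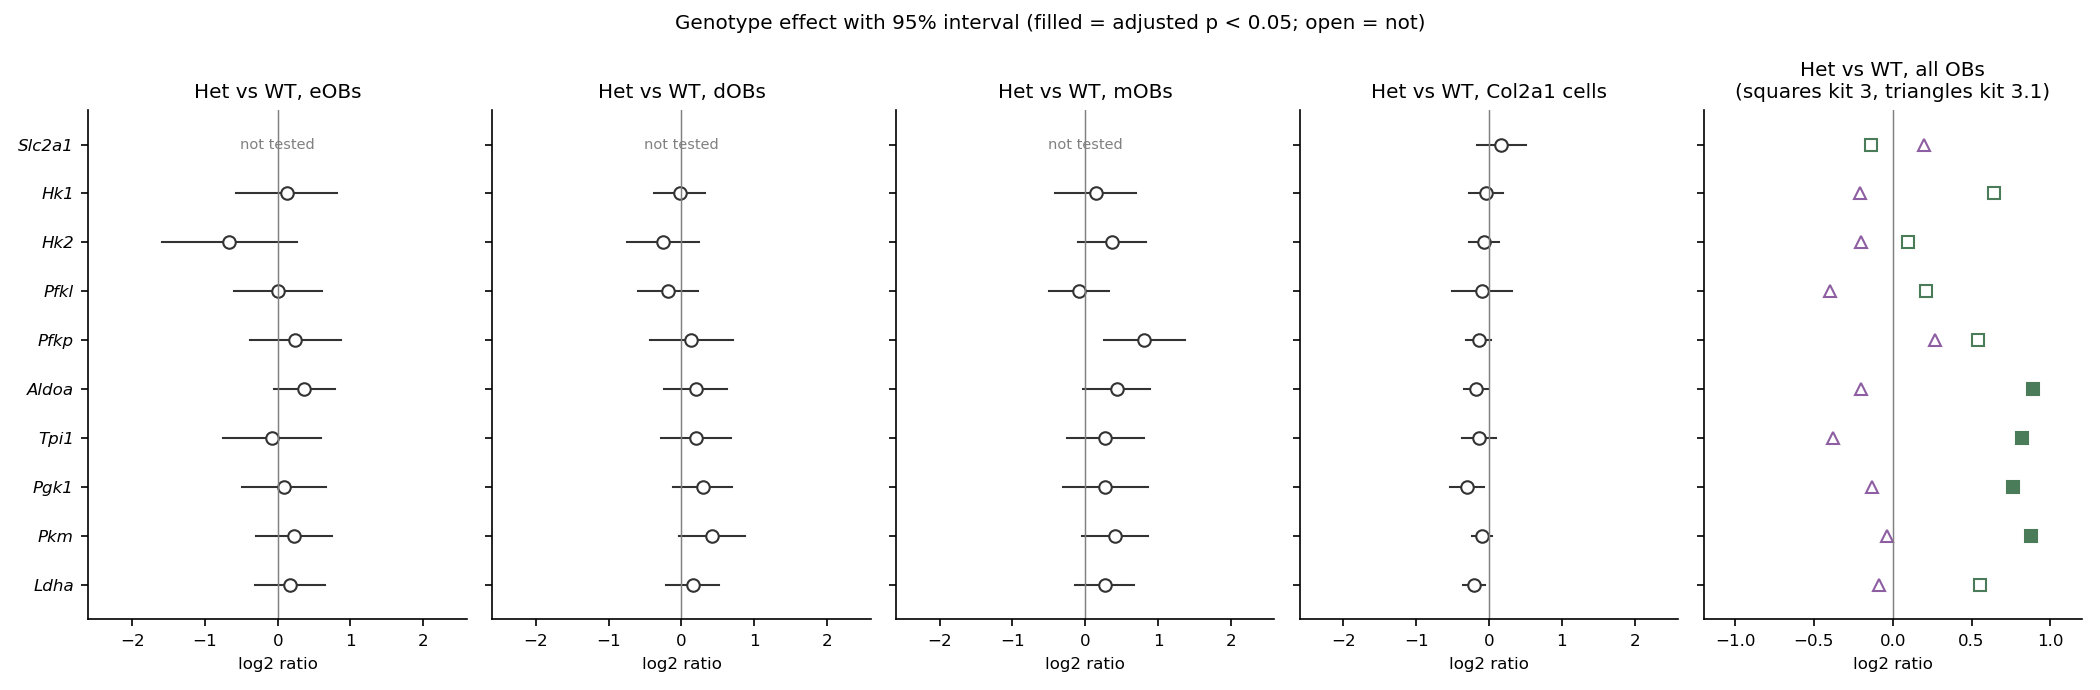
Log2 ratio of Het to WT (x axis) for each gene in eOBs, dOBs, mOBs and Col2a1 cells over both kit versions (circles with 95% intervals), and in all OBs within kit version 3 (squares) and version 3.1 (triangles). Filled symbols had an adjusted p under 0.05: none in the first 4 panels, and Aldoa, Tpi1, Pgk1 and Pkm with version 3 in the last.

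Outside the OBs most members had lower values in Het, with 0 called by edgeR over both kit versions and Pgk1 called in the other cells by DESeq2 (9.72% of all genes). In Col2a1 cells the sum of the members was 0.133% ± 0.005 of UMIs in WT and 0.117% ± 0.009 in Het (SD, n = 4 each), the Het libraries (0.107% to 0.127%) lying below the WT libraries (0.128% to 0.138%). Of the members 9 of 10 were lower in Het, Pgk1 at -0.30 (SE 0.11, adjusted p = 0.628), Ldha at -0.21 (SE 0.07, adjusted p = 0.587) and Aldoa at -0.18 (SE 0.08, adjusted p = 0.670). In the other cells 9 of 10 were lower too, Pgk1 at -0.52 (SE 0.15, adjusted p = 0.177). Without TMM 7 of 10 were lower there, with a median of -0.04 against 0.19 for all genes, in place of -0.22 against 0.03 with it. Within kit version 3 the other cells had Hk2 lower at -1.35 and Pgk1 lower at -0.86, 2 of 10 called where 31.4% of all genes were, and S1 and S2 are the libraries rich in haematopoietic markers. Among other cells with under 3 haematopoietic markers 5 of 10 members were lower, with a median of 0.03. The difference of the genotype effect between all OBs and Col2a1 cells was above 0 for 10 of 10 members, with a median of 0.41 against 0.0015 for all genes. By edgeR 0 were called (0% of all genes), and 0 had an unadjusted p under 0.05 (5.14% of all genes). DESeq2 called 0 members. With 1 library left out, the lowest values of Slc2a1 (-0.18), Hk2 (-0.23), Hk1 (-0.02) and Pfkl (-0.07) were below 0. The term was not fitted separately within each kit version. In OBs of version 3 the members summed to 0.0872% and 0.101% of UMIs in WT and 0.156% and 0.147% in Het. With version 3.1 the sums were 0.122% and 0.0990% in WT and 0.0932% and 0.122% in Het. Leaving out OBs that had 3 markers of another class kept 144 of 1706 WT and 242 of 965 Het OBs, and the fit then held WT S1, S5 and S6 and Het S3 and S4, both of kit version 3. There 4 members (Pgk1, Aldoa, Pkm and Ldha) were called higher, where 2.34% of all genes were called, and 7 of 10 were above 0.

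Further genes of glucose use were read from 7 lists, where 17.9% of all genes were called higher and 17.6% lower in mOBs than in eOBs. Between mOBs and eOBs the list named for glucose and lactate transporters had 5 of 8 tested genes higher and 1 lower. The lactate exporter Slc16a3 was at 2.05 (SE 0.34), Slc2a13, which encodes a myo-inositol transporter, at 0.94, Slc2a10 at 0.89 and the transporter chaperone Bsg at 0.77. The neuronal type glucose transporter Slc2a3 fell by 0.73. Of 8 other glycolysis genes Eno3 was higher at 0.99 and Ldhb, the lactate dehydrogenase subunit of oxidative tissues, was lower at -1.67 (SE 0.19). In pyruvate entry 3 of 11 were higher: Pdk1, which holds pyruvate dehydrogenase inactive, at 0.81, Pdha1 at 0.40 and Mpc1 at 0.27. Pentose phosphate genes gave 1 higher (Pgls, 0.27) and 1 lower (Pgd, -0.43) of 8, and glycogen genes 2 lower of 10, the phosphorylase Pygl at -1.92 and Ugp2 at -0.50. The higher calls depended on the scaling, as for the members. Without TMM the transporter list gave 3 higher (Slc16a3 at 1.62, Slc2a13 at 0.55 and Bsg at 0.31) and 2 lower, and the other glycolysis, pyruvate entry, pentose phosphate and glycogen lists gave 0 higher and 6, 5, 5 and 9 lower, where 7.07% of all genes were called higher and 58.4% lower.

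Of 15 hypoxia genes outside glycolysis 9 were higher and 1 lower in mOBs than in dOBs, with a median of 0.38 against -0.02 for all genes, of which 13.8% were called higher and 14.5% lower. From eOBs to dOBs 1 was higher and 3 lower, and from eOBs to mOBs 3 were higher and 1 lower. Without TMM these counts were 1 higher and 7 lower (4.37% and 9.18% of all genes), and 3 higher and 8 lower (7.07% and 58.4%). On that scale 3 were higher and 2 lower in mOBs than in dOBs, where 5.15% and 54.4% of all genes were, the 3 being P4ha1 (1.21), P4ha2 (0.95) and Ndrg1 (0.71). The collagen prolyl hydroxylase subunits P4ha1 (1.58, SE 0.18) and P4ha2 (1.31, SE 0.18) were the largest, followed by Ndrg1 (1.06), and Epas1, which encodes HIF-2α, was lower at -1.21. P4ha1 and P4ha2 modify procollagen, and Ndrg1 is a stress response gene. Over the same step 0 of the 10 members were called with TMM and 6 were lower without it, as given above. Between genotypes 0 genes of the 7 lists were called in any OB stage, in Col2a1 cells or in the other cells. The 1360 haematopoietic-marker cells were the other cells with at least 3 haematopoietic markers and under 3 of every other class, so they are fewer than the cells with 3 such markers given above. In them, with library S8 left out for having 5 cells, 0 members were called by edgeR (1.45% of all genes) and 0 by DESeq2, with an unadjusted p under 0.05 for 2 members and 13.5% of all genes, and Slc2a3, Taldo1 and Pygl were lower in Het at -2.14, -1.10 and -1.77.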

How the data were processed

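Single cells of mouse parietal bone were profiled in 8 libraries, and the deposited values were UMI counts by gene and cell barcode, not normalized, from Cell Ranger run by the authors (5.0.0 for kit version 3, 6.0.1 for version 3.1; genome build mm10). Counts were summed per library and class, and sums of under 10 cells were left out. Genes were tested over the whole table with edgeR 4.0.16 (limma 3.58.1, R 4.3.3): filterByExpr, TMM scaling, and the quasi-likelihood test with kit version and genotype, or with the library as a block for stages and classes. P-values were adjusted by Benjamini-Hochberg over all genes tested, a gene was called at an adjusted p under 0.05, and standard errors and 95% intervals were set to match the p-value. DESeq2 1.42.0, other scalings, filters, OB limits and cell selections were alternatives. Differences are log2. Doublets were kept; an alternative dropped OBs in which 3 or more markers of another class were detected. The fit was tested on simulated data. Pups are pooled, so p-values measure the spread between libraries. Levels and intervals rest on captured molecules, and low genes are limited by counting. All 10 members are reported in each main comparison, singly, by range or by count, and from each list up to 4 called genes by size. The members, lists and comparisons were chosen with earlier results of these data known. The term for genotype by kit version, fits of stages and classes within a kit version, unscaled fits without collagen genes, the selection that keeps erythroid markers, the split of other cells by haematopoietic markers, and the list genes without TMM were added after the data were seen. The replicate numbers in the labels were checked: deviations of same-numbered libraries within a kit version correlated at -0.12 to 0.15.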

Additional observations from a re-analysis of the deposited data

Results flagged for a closer look

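In 6 of 100 groups of 4 libraries 1 library stood apart from the others, where chance gives about 1 in 20 groups. Slc2a1 in dOBs of Het S8 was 12.99 UMIs per 1000000 UMIs against 3.73 to 4.81 in the other Het libraries. Pfkl was 49.7 in eOBs of Het S3 (34.0 to 36.2 in the others) and 18.7 in mOBs of Het S7 (28.6 to 30.0). Library WT S5 had Tpi1 at 198 in eOBs (129 to 137 in the others) and Pgk1 at 111 (73.3 to 77.9). Pgk1 in mOBs of Het S7 was 58.2 against 123 to 135 in the other Het libraries.

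The genotype effect differed between kit versions in all OBs for Tpi1 (-1.22 on the log2 scale) and Aldoa (-1.11), and in the other cells for Pgk1 (0.63) and Hk2 (1.46), each by a test of the difference itself. The ratio of Hk2 in OBs to Col2a1 cells differed between kit versions by -1.998.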

How the results depend on the processing

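Counts of members called stayed within 1.5 times the reported count in 335 alternatives and moved further in 39. A reported 0 that stayed 0 is among the 335, so that number does not measure how stable the calls are. The reported counts are 0 for each Het vs WT comparison, 5 for mOBs vs eOBs, 0 for mOBs vs dOBs, 1 for dOBs vs eOBs, 4 for OBs vs Col2a1 cells, 3 for OBs vs other cells and 6 for Col2a1 cells vs other cells. For Het vs WT, kit version 3 alone gave 3 in mOBs, 1 in eOBs, 4 in all OBs, 2 in the other cells and 1 in haematopoietic-marker cells (Pkm), where 5.26%, 5.81%, 7.33%, 31.4% and 7.91% of all genes were called. Dropping OBs that had 3 non-erythroid markers of another class gave 1 in mOBs (2.11% of all genes) and 2 in all OBs (3.12%). DESeq2 gave 1 in the other cells (9.72% of all genes), and leaving out a library gave 0 to 1 in haematopoietic-marker cells (Pkm, without Het S7). For mOBs vs eOBs the count was 2 within either kit version (25.5% of all genes in version 3 and 26.9% in 3.1). It was 3 unscaled without collagen genes, 0 without OBs with 3 markers of another class, 1 with other Col1a1 limits (Pfkp), 1 with cells thinned to 2000 UMIs, 1 without such markers but erythroid, and 2 in WT or Het libraries alone. For mOBs vs dOBs it was 2 unscaled without collagen genes, 6 without TMM (59.6% of all genes), 1 with looser OB selection, 2 with other Col1a1 limits, and 0 to 1 without a library. For dOBs vs eOBs it was 0 within kit version 3, without 3 markers, without such markers but erythroid, with other limits, under 5% mitochondrial UMIs, thinned, or in Het alone, 2 without the count filter, 3 with looser selection, 2 with low Col2a1, and 1 to 2 without a library. OBs vs Col2a1 cells gave 8 within kit version 3.1, where 62.3% of all genes were called. OBs vs other cells gave 6 within version 3.1 and 5 without TMM, and Col2a1 cells vs other cells 2 within version 3. Counts in this section without a share of all genes show only how the calls move. They are not a result about the members. The difference of the genotype effect between OBs and Col2a1 cells gave 4 (2.34% of all genes) without OBs with 3 markers of another class, which left 3 WT and 2 Het libraries. Among values called on either side, signs turned without TMM for mOBs vs eOBs in Tpi1 (-0.32), Ldha (-0.26), Aldoa (-0.11) and Hk1 (-0.0039) and for mOBs vs dOBs in Aldoa (-0.26), Pfkl (-0.28) and Pkm (-0.26), where the median of all genes shifted too. They also turned for OBs vs Col2a1 cells in Hk2 within kit version 3 (0.053) and in Aldoa within version 3.1 (-0.26). Values called on neither side changed sign too, among them Pgk1 (-0.14), Hk1 (-0.16) and Hk2 (-0.35) for mOBs vs dOBs and Tpi1 (-0.13) and Pkm (-0.14) for OBs vs other cells without TMM, and Pgk1 (-0.02) and Pkm (-0.0058) for Het vs WT in mOBs with other Col1a1 limits. Beyond the scaling and the smaller samples the cause was not tested. With the replicate number as a block 0 members were called in each Het vs WT comparison, and since the numbers do not pair the libraries this says nothing about pairs. Not run were kit version 3.1 alone for haematopoietic-marker cells and, without 3 markers, Het vs WT in eOBs, with too few cells. Depth limits Slc2a1 most, with 1 to 34 UMIs per library in eOBs.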
